A study of Caenorhabditis elegans with 6 samples.

Results

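The furrow collagens of Caenorhabditis elegans are cuticle collagens that mark and are needed for the annular furrows, the shallow grooves that ring the worm's body at regular intervals. The group comprised 6 genes, dpy-2, dpy-3, dpy-7, dpy-8, dpy-9 and dpy-10, and its members were the probe sets that the array's gene table assigns to a single one of these genes. Of the 22548 probe sets on the array, 6 qualified. They stood for 5 genes, with 2 probe sets for dpy-2 and 1 each for dpy-3, dpy-7, dpy-8 and dpy-9. The brighter dpy-2 probe set and those of dpy-3, dpy-7 and dpy-8 are of a kind (_s_at) whose probes can be shared by several transcripts. Whether they bind transcripts of other genes was not tested. No probe set named dpy-10 alone, so dpy-10 is not reported as a member.

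Cuticle collagens are secreted by the hypodermis, the epidermal layer of the worm, which builds a fresh cuticle before every molt. The furrow collagens are made in a pulse during each molting cycle, ahead of many other cuticle collagens, and they depend on one another: loss of any of them disrupts the furrows and leaves a short, stout (dumpy) animal. Such loss is also known to switch on genes for osmotic, detoxifying and antimicrobial responses in the hypodermis. They are not genes of neurons, and the promoter of dpy-7 is widely used to drive transgenes in the hypodermis.

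The RNA measured here was enriched for A-class motor neurons (DA and VA), cholinergic neurons of the ventral cord that drive backward movement. It was taken from larvae of the L2 stage by mRNA tagging, in which a poly(A)-binding protein, PAB-1, carrying a 3X FLAG tag is made under the unc-4 promoter and pulled down with its bound transcripts. Wild-type larvae (strain N2) gave 3 arrays and unc-37(e262) larvae another 3, named as biological replicates, and the tag was used in both groups. Animals grew at 25 °C. unc-37 encodes a Groucho-like corepressor, a partner of the homeodomain factor UNC-4, and the comparison asks which transcripts differ in these neurons when unc-37 is mutant. The pull-down enriches neuronal RNA but does not purify it. In such a sample, a difference in hypodermal cells or carry-over, in either direction, and a difference in RNA per hypodermal cell cannot be told apart.

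Median intensity per array lay between 50.1 and 52.4 on the deposited linear scale, and precision is limited by how few arrays there are. Over all probe sets the log2 values correlated at 0.984 to 0.991 between arrays of one genotype and at 0.964 to 0.981 between genotypes. The array numbers in the labels run from 73 to 85 for wild type and from 89 to 98 for unc-37, so a drift along those numbers and an effect of genotype cannot be told apart. The brightest unc-37 probe set read 371.5, 349.6 and 360.1 in wild type and 477.5, 546.8 and 506.1 in the mutant, a log2 change (unc-37 minus wild type) of 0.50 ± 0.09 SE with a limma adjusted p of 0.0159 that became 0.0509 or 0.0711 when wild-type replicate 1 or 2 was dropped. What e262 alters in the transcript is not stated in the labels, so this level does not test them. The defining A-class gene unc-4, whose promoter drives the tag, read 114 to 290.3 in wild type and 1001 to 1441 in unc-37. No detection calls were used, so its presence on each array was not tested. The 3 probe sets of pab-1, from brightest to dimmest, had log2 changes of 0.17, 0.35 and 0.21. None was called (limma adjusted p = 0.365, 0.47 and 0.357). Whether the amount of tagged protein differed between the genotypes was not tested.

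All 5 measured furrow collagen genes had a higher mean in unc-37 than in wild type, with log2 changes from 0.34 to 0.82 at each gene's brightest probe set and a median of 0.59. By limma, fitted across all probe sets with Benjamini-Hochberg adjustment and 0.05 as the threshold of the adjusted p, 1 of the 5 genes was called higher (dpy-9) and none was called lower. Of all 17118 genes taken at their brightest probe set, 3.94% were called higher and 2.81% lower, and the median change was -0.01. At an unadjusted p below 0.05, 4 of the 5 furrow collagen genes were higher, against 11.5% of all genes, and none was lower. The share of all genes lower at that threshold was not counted. Counts of lower genes at it, here and below, thus have no background. In 2 of the 5 genes, dpy-2 and dpy-9, every unc-37 array lay above every wild-type array, as it did for 12.6% of all genes. A mean above that of wild type was common among all genes, at 46.6%, whereas a change of at least 0.5 upward was found in 4.71% of them and in 4 of the 5 furrow collagen genes. The cutoff of 0.5 was not among the planned results, and the 5 genes varied together over the arrays. The counts of members therefore describe these arrays and are not independent tests. For any 1 gene, the smallest p that an exact permutation of 3 and 3 arrays allows is 0.1.

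dpy-9 encodes a furrow collagen whose probe set was the tightest of the group. It read 157, 190.5 and 189.7 in the 3 wild-type arrays and 297, 248 and 241 in the 3 unc-37 arrays. The genotypes did not overlap, and within each genotype the arrays lay close together (SD 0.16 in wild type and 0.16 in unc-37 on the log2 scale). The log2 change was 0.55 ± 0.12 SE (n = 3 per group, limma adjusted p = 0.0344), a 1.46-fold rise with a 95% interval of 1.21 to 1.77. The call ended when wild-type replicate 1 (adjusted p = 0.118), wild-type replicate 2 (0.0806), unc-37 replicate 1 (0.116) or unc-37 replicate 2 (0.0668) was left out. It also ended with the replicate number as a block (0.0971), a second quantile normalization (0.0544) or a trend in the prior variance (0.0576). Of 15 alternatives, 7 kept it.

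dpy-2 encodes a furrow collagen and was the only member with more than 1 probe set. Its brighter probe set read 266, 400.1 and 385 in wild type and 756, 475 and 627 in unc-37. Its dimmer probe set read 197, 209 and 233 in wild type and 490.4, 298 and 353 in unc-37. In neither did the genotypes overlap, and both probe sets placed unc-37 replicate 1 highest and unc-37 replicate 2 lowest among the mutants. The log2 changes were almost equal, at 0.82 ± 0.20 SE for the brighter and 0.81 ± 0.17 SE for the dimmer (1.76-fold and 1.75-fold). They nevertheless fell on different sides of the threshold, with limma adjusted p-values of 0.0527 and 0.0308, so that dpy-2 was called by its dimmer probe set only. The brighter probe set was called in 5 of 15 alternatives. These were unc-37 replicate 2 left out (adjusted p = 0.036), median centring (0.0445), array weights (0.0188), dim probe sets left out (0.0445) and averaged probe sets (0.0311). The dimmer one lost its call without wild-type replicate 1 (0.117), wild-type replicate 2 (0.106), unc-37 replicate 1 (0.0569) or unc-37 replicate 3 (0.0585). It also lost it with the replicate block (0.0547), a second quantile normalization (0.0515) or a pseudocount of 16 (0.0553), and kept it in 6 of 14 alternatives.

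**Figure D1:**
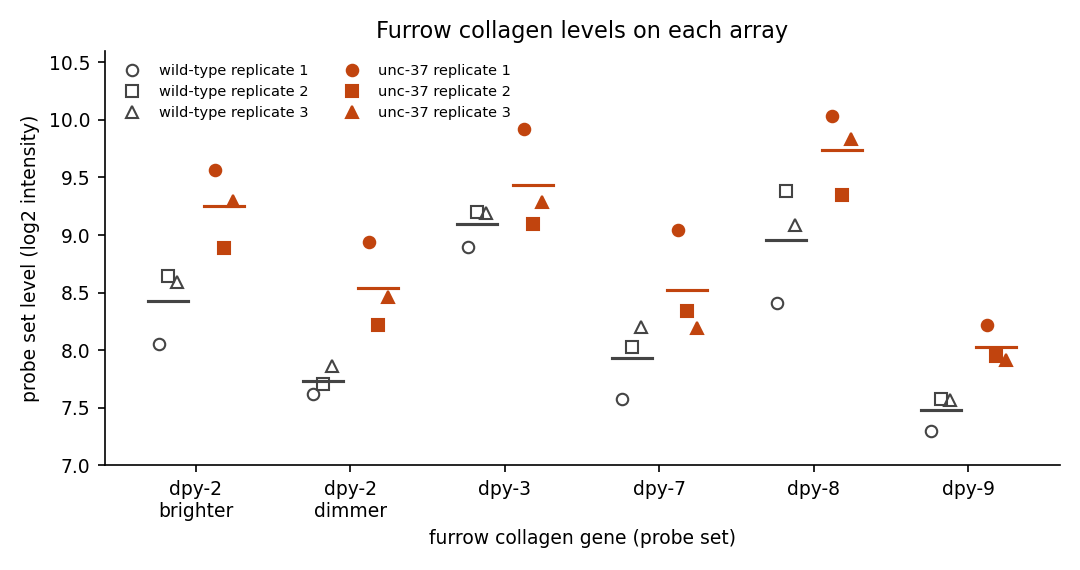
The vertical axis is the log2 intensity of each of the 6 furrow collagen probe sets, with open symbols for the 3 wild-type arrays, filled symbols for the 3 unc-37 arrays, and a bar at each mean. unc-37 replicate 1 is the highest array for every probe set, wild-type replicate 1 the lowest, and the genotypes are separate for both dpy-2 probe sets and dpy-9 only.

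dpy-8 is a furrow collagen gene with a change near that of dpy-2 and a wider spread. It read 340.5, 665 and 543 in wild type and 1048, 653 and 912 in unc-37. unc-37 replicate 2 lay just below wild-type replicate 2, so the genotypes overlapped by 1 array on each side. The log2 change was 0.78 ± 0.26 SE (95% interval 0.20 to 1.37), which was not called (limma adjusted p = 0.123, exact permutation p = 0.2). Without wild-type replicate 1 it was 0.51.

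dpy-7, the furrow collagen gene whose promoter serves as a hypodermal driver, read 191, 260.5 and 295 in wild type and 528, 324 and 293 in unc-37. The lowest mutant array, replicate 3, lay just below the highest wild-type array, replicate 3. The log2 change was 0.59 ± 0.24 SE (95% interval 0.05 to 1.13) and was not called (limma adjusted p = 0.203, exact permutation p = 0.2). Without unc-37 replicate 1 it was 0.33.

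dpy-3 had the smallest change of the group. It read 476, 589.6 and 583 in wild type and 969, 547 and 625 in unc-37. Apart from unc-37 replicate 1, the mutant arrays lay among or close to the wild-type arrays. The log2 change of 0.34 ± 0.20 SE had a 95% interval of -0.12 to 0.80 and was not called (limma adjusted p = 0.393, exact permutation p = 0.4), and it was 0.10 without unc-37 replicate 1 and 0.51 without unc-37 replicate 2.

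dpy-10 encodes the remaining furrow collagen and is a common marker in genome editing of the worm, since edited animals can be picked by their shape or rolling. Although no probe set was assigned to it, 2 probe sets were assigned to T14B4.19, a gene that overlaps dpy-10 in the RefSeq gene table. In the same table dpy-2 lies beside dpy-10, with no protein-coding gene wholly between them. The brighter T14B4.19 probe set read 661, 1087 and 1216 in wild type and 1752, 1110 and 1723 in unc-37. The dimmer one read 209, 243 and 275 in wild type and 384, 282 and 256 in unc-37. Both had the low wild-type replicate 1 and the high unc-37 replicate 1 of the furrow collagens, and both overlapped between genotypes. Their log2 changes were 0.65 ± 0.25 SE (limma adjusted p = 0.193) and 0.33 ± 0.17 SE (0.311), neither called. Whether these probe sets bind dpy-10 transcripts was not tested, and they are not counted with the group.

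The 5 genes varied together within as well as between genotypes. Wild-type replicate 1 was the lowest wild-type array for 5 of 5 genes, and unc-37 replicate 1 was the highest mutant array for 5 of 5. The lowest mutant array was replicate 2 for 3 genes and replicate 3 for 2. Averaged over the 5 genes and set against the mean of the 6 arrays, the log2 level was -0.64, -0.12 and -0.16 in wild-type replicates 1, 2 and 3 and 0.67, 0.04 and 0.22 in the unc-37 replicates. The level thus differed within a genotype by up to 0.63 on this scale, close to the size of the median change between genotypes. Between members, the root mean square difference of these array profiles was smallest for dpy-2 and dpy-8 (0.11) and largest for dpy-3 and dpy-8 (0.32).

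The other body shape collagens, 14 genes whose mutants are dumpy, rolling, long, blistered or squat and whose products are not assigned to the furrows, had changes of the opposite sign. Of the 13 measured, 2 were called lower and none higher by limma, 3 were lower and none higher at an unadjusted p below 0.05, and all 13 had a change below 0, with a median of -0.39. Single arrays moved that median: it was -0.60, -0.22 and -0.71 when wild-type replicates 1, 2 and 3 were dropped in turn and -0.78 on dropping the mutant replicate 1, and 1 of the 13 turned above 0 without replicate 2 of either genotype. dpy-4 fell by 0.96 ± 0.23 SE on the log2 scale (adjusted p = 0.0469) and dpy-13, a collagen of the annuli between the furrows, fell by 0.91 ± 0.22 SE (0.0451). dpy-13 read 7400, 9279 and 6517 in wild type and 5382, 2982 and 4213 in unc-37, without overlap. Its call and that of dpy-4 rest on probe sets of a kind (_x_at) that can bind related transcripts. Neither was called without wild-type replicate 1 or 2 or without unc-37 replicate 2 or 3, and dpy-4 not without unc-37 replicate 1 either, with adjusted p-values of up to 0.126 for dpy-4 and 0.156 for dpy-13 over the alternatives.

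**Figure D2:**
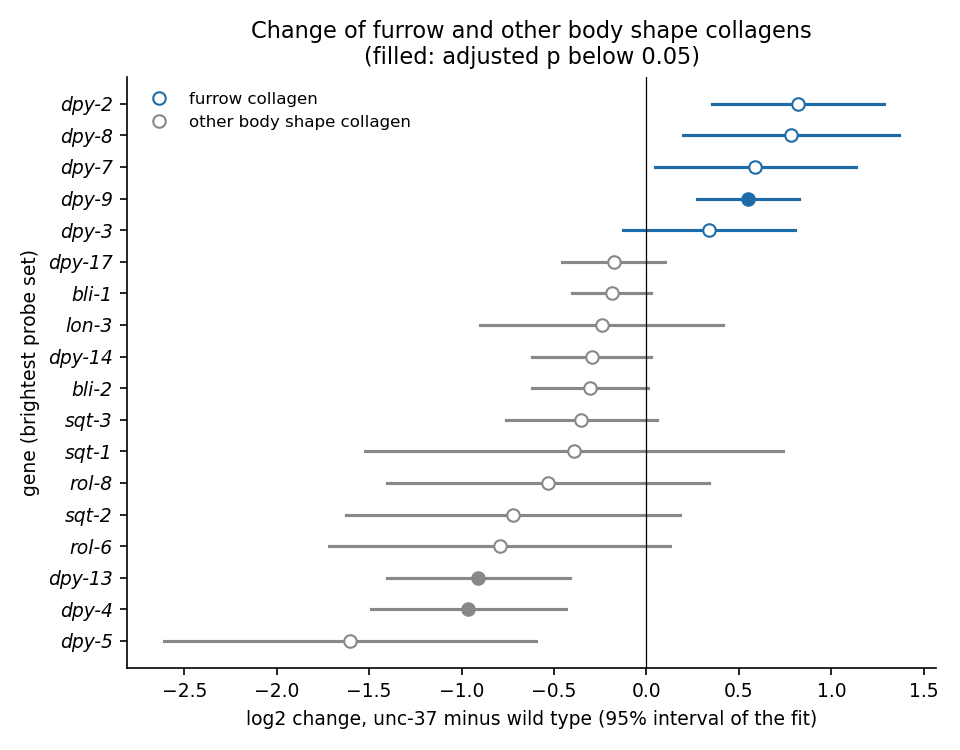
The horizontal axis is the log2 change (unc-37 minus wild type) with the 95% interval of the limma fit for the 5 furrow collagen genes and 13 other body shape collagen genes, filled where the adjusted p was below 0.05. The 5 furrow collagens lie between 0.34 and 0.82 and the 13 others between -1.60 and -0.18.

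Each furrow collagen was then set against the mean of the 13 other body shape collagens on the same array. That mean was 0.58 lower in unc-37 on the log2 scale, so the subtraction adds 0.58 to every gene, and the median over all 17118 genes was 0.56 on this relative scale. The values therefore describe the distance between the collagen groups and not a change of the furrow collagens alone. On this scale the log2 difference between unc-37 and wild type was 1.39 for dpy-2, 1.36 for dpy-8, 1.16 for dpy-7, 1.12 for dpy-9 and 0.91 for dpy-3. Every unc-37 array lay above every wild-type array for each of the 5 genes, as it did on this scale for 16.6% of all genes, whereas the own levels of dpy-3, dpy-7 and dpy-8 overlapped. The exact permutation test over the 6 arrays gave p = 0.1 for each gene, two-sided and unadjusted over the 5 tests, which is the smallest value the design allows. Averaged over the 5 genes, the difference was -0.80, -0.84 and -0.15 in wild-type replicates 1, 2 and 3 and 0.50, 0.70 and 0.59 in the unc-37 replicates. Within a genotype the 2 collagen groups shared part of their order, since unc-37 replicate 1 was also the highest mutant array for 11 of the 13 other collagens, whereas the lowest wild-type array was replicate 3 for 11 of those 13 and replicate 1 for all 5 furrow collagens.

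The col genes, the large family of cuticle collagens named by sequence rather than by mutant shape, gave a wider background. Of 128 measured, 59 were called lower and 1 higher, and 7 had a change above 0. Many of the called genes were read at probe sets (_x_at or _s_at) that can bind related or shared transcripts. Their calls therefore need not be separate results for each gene. The changes of dpy-2 and dpy-8 were exceeded by 1 of the 128 col genes and those of dpy-3, dpy-7 and dpy-9 by 2 of them. These were col-149 (log2 change 0.94, limma adjusted p = 0.0469) and, for the latter 3 members, also col-128 (0.64, 0.106), named after their values were seen. Dropping wild-type replicate 1 left 34 called lower, dropping wild-type replicate 2 left 33 and dropping unc-37 replicate 1 left 38, and col-149 was not called without any of these or unc-37 replicate 2 (adjusted p 0.128 to 0.158). All col and furrow collagen probe sets were measured on the same 6 arrays.

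**Figure D3:**
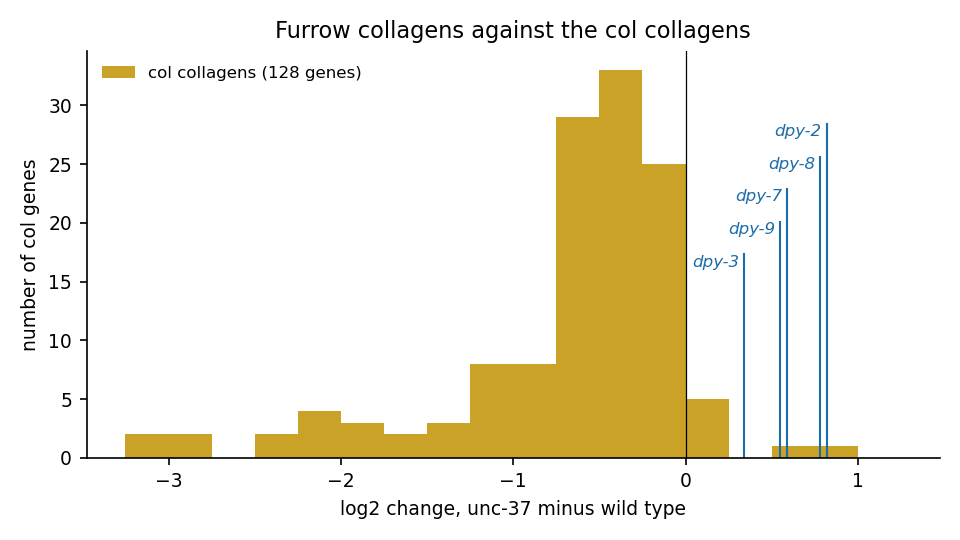
The bars count the 128 col genes by their log2 change (unc-37 minus wild type) at the brightest probe set, and the vertical lines mark the 5 furrow collagen genes. Most bars lie below 0, with a median of -0.49, and the furrow collagens lie between 0.34 and 0.82 near the upper end.

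Hypodermis markers other than collagens did not share a direction. Of 12 such genes, all measured, mua-3, which encodes a transmembrane protein of the attachments between hypodermis and muscle, was called higher (log2 change 1.01 ± 0.19 SE, limma adjusted p = 0.02) and mup-4, which encodes a related attachment protein, was called lower (-1.53 ± 0.20 SE, 0.0045). The median change was -0.12 (-0.24 without unc-37 replicate 2), and the levels summed over the list were 4129 to 5257 in wild type and 3966 to 4384 in unc-37, ranges that overlap. Of the 12, 4 had a change above 0 and 8 below. At an unadjusted limma p below 0.05, 3 were higher, against 11.5% of all genes, and 3 lower. The hypodermal transcription factor genes lin-26, elt-1 and elt-3 were at 0.49 (adjusted p = 0.166), 0.39 (0.0527) and -0.12 (0.622). vab-10 was at -0.47 (0.183), snf-12 at -0.39 (0.267) and sta-2 at -0.29 (0.0988), and none of these was called. Both elt-1 and elt-3 are also in the list of molt and cuticle regulators below. mua-3 was not called once wild-type replicate 1 or 2 or the mutant replicate 1 or 2 was left out (adjusted p up to 0.0845 over the alternatives). Its second, dim probe set was at -0.05 (0.786), and the average of both probe sets was at 0.48. By contrast, mup-4 was called in each of the 14 alternatives other than scaling to neuronal genes, and its dimmer probe set was at -0.93 (0.0506). Of 7 seam cell markers, 6 were measured and 4 had a change above 0, with a median of 0.08. The only one called was grd-10, a hedgehog-related gene, which was lower (-0.66, 0.0358). The summed level was 2425 to 2621 in wild type and 2020 to 2158 in unc-37, of which grd-10 made up 1335 to 1614 and 832 to 1179, and the other 5 genes summed to 933 to 1090 and 974 to 1326, ranges that overlap. The grd-10 call was kept only without unc-37 replicate 2 and otherwise ended with any array left out (0.0607 to 0.13). For comparison, the summed level of the 5 furrow collagens was 1431 to 2106 in wild type and 2246 to 3599 in unc-37. The own levels of dpy-3, dpy-7 and dpy-8, which enter this sum, overlapped between the genotypes. Each sum is weighted to its brightest genes, dpy-3 and dpy-8 here and pat-12 and ifb-1 among the hypodermis markers. The part of the amount of hypodermal RNA in these changes was not tested.

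**Figure D4:**
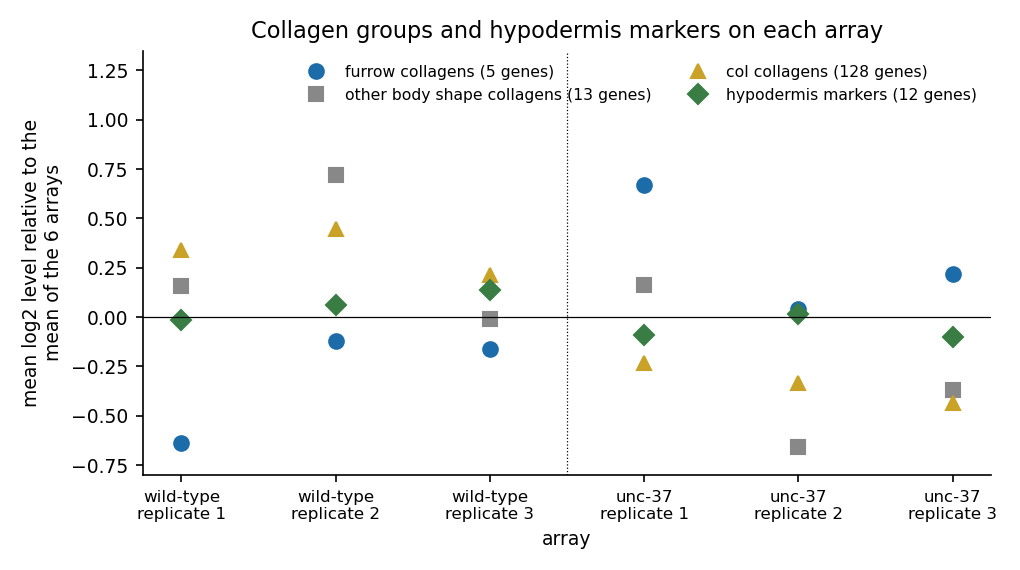
The vertical axis is the mean log2 level of each gene group relative to the mean of the 6 arrays, for the 3 wild-type and 3 unc-37 arrays. The furrow collagens are lowest in wild-type replicate 1 (-0.64) and highest in unc-37 replicate 1 (0.67), the col collagens are above 0 in each wild-type array and below 0 in each unc-37 array, and the hypodermis markers stay between -0.10 and 0.14.

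Markers of the tagged neurons moved with genotype on the same arrays as the furrow collagens. All 6 A-class and cholinergic markers were called higher, among them unc-4 (log2 change 2.74 ± 0.31 SE, limma adjusted p = 0.00245) and acr-2, an acetylcholine receptor subunit gene (1.05 ± 0.11 SE, 0.00198), and their summed level was 1211 to 1701 in wild type and 3383 to 3960 in unc-37. Of 13 pan-neuronal markers 8 were called higher and none lower, with sums of 6022 to 7101 and 9972 to 10635. The lowest adjusted p-values were those of unc-13 (1.02, 0.00173), a vesicle priming gene, and rab-3 (0.90, 0.00667), a vesicle GTPase gene, while sng-1 and snt-1, genes of vesicle proteins, had larger changes (1.20 and 1.05). Of the pan-neuronal genes, 3 were called without wild-type replicate 2 or without unc-37 replicate 1 and 6 with any other array left out, and of the A-class and cholinergic genes unc-3 was not called in 8 of 14 alternatives. When every array was scaled to these 13 neuronal genes, all changes became 0.59 lower by construction and no furrow collagen was called. dpy-2, dpy-8 and dpy-7 were then at 0.23, 0.19 and 0.0012, and dpy-9 and dpy-3 turned to -0.04 and -0.25. The direction of the furrow collagens is therefore stated relative to the whole array, not to neuronal transcripts.

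None of the 8 muscle, 8 intestine, 6 pharynx and 6 germline markers was called at its brightest probe set by limma. In each of these lists 1 gene was lower and none higher at an unadjusted p below 0.05, without a share of all genes to set the lower counts against. Dimmer probe sets of the muscle gene unc-89 (-0.49, adjusted p = 0.0409) and the pharynx gene ceh-22 (-0.41, 0.0409) were called lower, but unc-89 lost its call whichever array was dropped (0.0744 to 0.0948) and ceh-22 kept it only without unc-37 replicate 3 (otherwise 0.0725 to 0.151). The summed levels overlapped between the genotypes in all 4 lists, for example 6967 to 8793 in wild type and 7007 to 8256 in unc-37 for muscle.

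Genes that process and crosslink collagens were mostly not called. Of 15, all measured, 1 was called higher and none lower by limma, with a median change of 0.01. The rise was that of dpy-11, which encodes a thioredoxin-like protein of the hypodermis needed for normal body shape. It read 700.4, 598 and 736 in wild type and 1002, 915 and 974 in unc-37, without overlap, a log2 change of 0.51 ± 0.10 SE (adjusted p = 0.0261). Its call ended without any of the arrays except wild-type replicate 3 (adjusted p up to 0.101 over the alternatives), and its dimmer probe set was at 0.66 and not called (0.176). dpy-18, which encodes the prolyl 4-hydroxylase subunit that modifies nascent collagen chains, was at 0.21 (0.505), and bli-3, which encodes the dual oxidase that crosslinks the cuticle, at -0.15 (0.607). mlt-7, which encodes a peroxidase that works with BLI-3, was at -0.53 (0.0694) in its brighter probe set and was called lower in its dimmer one (-0.52, 0.0275), though not without wild-type replicate 1 or 2 or the mutant replicate 1 or 3 (0.0676 to 0.11).

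Transcription regulators of the molt and the cuticle were compared because the furrow collagens are pulsed with the molting cycle. Of 11, all measured, 1 was called higher and none lower, and 3 were higher and 1 lower at an unadjusted p below 0.05. The rise was that of myrf-1, which encodes a membrane-bound transcription factor needed for larval development. It read 151, 124 and 213 in wild type and 300.7, 245 and 376.5 in unc-37, with a log2 change of 0.93 ± 0.22 SE (limma adjusted p = 0.042). That call was lost when wild-type replicate 1 or 2 or the mutant replicate 1 or 3 was left out (adjusted p up to 0.142 over the alternatives). nhr-23, a nuclear receptor gene of the molting oscillation, was at 0.32 ± 0.26 SE (0.558), blmp-1 at 0.27 (0.294), the GATA factor gene elt-1 at 0.39 (0.0527), the heterochronic gene lin-29 at 0.55 (0.0554) and the nuclear receptor gene nhr-25 at -0.39 (0.0535), none called.

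Genes known to be induced when furrow collagens are lost were split. Of 12, 11 were measured, and 2 were called higher and 1 lower by limma, with a median change of 0.12. The antimicrobial peptide genes nlp-31 (log2 change 1.05 ± 0.20 SE, adjusted p = 0.02) and nlp-27 (0.97 ± 0.19 SE, 0.0235) rose, and cnc-4, of the caenacin family of antimicrobial peptides, fell (-1.06 ± 0.18 SE, 0.0121). nlp-29, the usual reporter gene of this response, was at 0.37 (0.431), gpdh-1, an enzyme gene of glycerol synthesis used as an osmotic reporter, at 0.26 (0.184), and gst-4, a glutathione transferase gene of the detoxifying response, at 0.21 (0.437), none called. The nlp probe sets are of the kind that can bind related transcripts. nlp-31 lost its call without wild-type replicates 1 or 2, nlp-27 without those or unc-37 replicates 2 or 3, and cnc-4 without unc-37 replicate 1 (adjusted p up to 0.0794, 0.0783 and 0.0559 over the alternatives).

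The genes whose array pattern was nearest to that of the furrow collagens were ranked by the root mean square difference between their log2 profile over the 6 arrays and the mean profile of the 5 members, each centred on its own mean, among 17113 other genes. The nearest 10 were noah-1 (0.07), M03B6.3 (0.08), nas-4 (0.10), mltn-9 (0.11), col-128 (0.12), lpr-3 (0.12), kap-1 (0.13), F13D11.4 (0.13), T03G6.1 (0.14) and cuti-1 (0.15). For scale, dpy-3 and dpy-8 lay 0.17 and 0.18 from the mean profile that they help to form. noah-1 encodes a zona pellucida domain protein of the apical extracellular matrix, lpr-3 a lipocalin of that matrix, nas-4 an astacin metalloprotease and kap-1 a kinesin-associated protein of cilia. Of the 10, lpr-3 (log2 change 0.73, limma adjusted p = 0.0487) and cuti-1 (0.82, 0.0496) were called, and the others had changes of 0.43 to 0.65 without a call. The ranking used the whole profile, genotype difference included. Upward changes of about this size therefore follow from the selection, and the calls are no independent result. lpr-3 kept its call only without wild-type replicate 3 or unc-37 replicate 2 (otherwise 0.111 to 0.166), and cuti-1 only without wild-type replicate 3 (otherwise 0.0778 to 0.161). The probe sets of lpr-3 and kap-1 are of the kind (_x_at) that can bind related transcripts. Those of M03B6.3 and col-128 are of the kind (_s_at) whose probes can be shared by several transcripts.

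**Figure D5:**
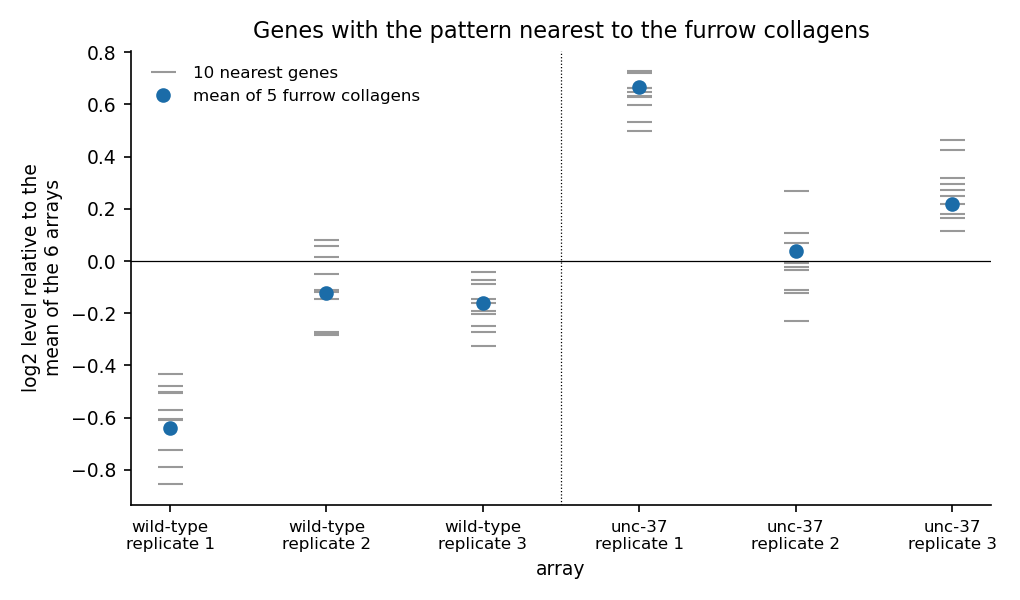
The vertical axis is the log2 level relative to the mean of the 6 arrays, with a filled point for the mean of the 5 furrow collagens and a dash for each of the 10 nearest genes, on the 3 wild-type and 3 unc-37 arrays. The member mean is -0.64 in wild-type replicate 1 and 0.67 in unc-37 replicate 1. The dashes lie around it on every array because the genes were picked for nearness to it.

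Ranked for single members by the same measure, the nearest genes were lpr-3 (0.09) and M03B6.3 (0.12) for dpy-2, nas-4 (0.08) and C46C11.3 (0.10) for dpy-3, noah-1 (0.16) and nas-4 (0.16) for dpy-7, mltn-9 (0.11) and mlt-11 (0.15), a gene required for molting that encodes a protein with Kunitz domains, for dpy-8, and F20G2.3 (0.07) and F48E3.2 (0.07) for dpy-9. Of these, F48E3.2 was called (log2 change 0.51, limma adjusted p = 0.0284), as was lpr-3; the call of F48E3.2 was kept only without replicate 3 of either genotype (otherwise 0.0827 to 0.11). The probe sets of C46C11.3, mlt-11 and F20G2.3, like that of M03B6.3, are of the kind (_s_at) whose probes can be shared by several transcripts. Only nas-4 was among the 2 nearest of more than 1 member. All these genes were picked by profiles that include the genotype difference, so their changes and calls are no independent result.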

How the data were processed

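Poly(A) RNA of 6 samples underwent 2 in vitro transcription rounds before hybridisation to 1-colour arrays, per the labels' protocols; this favours 3' transcript ends. The authors deposited intensity values from RMA, per the submitters' processing notes (version and probe set definitions: not given in the sources used here). Their linear scale was inferred from array maxima of 12124 to 15148. Values were log2 transformed without a filter or another normalization. By the platform's annotation, 20766 probe sets name 1 gene, 887 several, and 895 are not listed. RefSeq's gene table (WBcel235), which lacks the gene of 65 of those, served for names and neighbours only. Each gene was read at its brightest probe set.

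The test was limma 3.58.1 (lmFit, eBayes; R 4.3.3) on genotype, two-sided, Benjamini-Hochberg adjusted across the array. On simulated data for this comparison, where 200 of 22548 probe sets were changed, recovery was 43.9% at 1.5-fold, 91.8% at 2-fold and 98.6% at 4-fold, and 9 of 166 calls were false. The simulated noise was independent between probe sets, with a spread drawn from the fitted prior. The furrow collagens shifted together from array to array, so these rates need not hold for them. Members and lists were chosen with earlier results of these data known. The text names all members, the leading called genes per list (up to 4 per direction, 2 for marker lists), the 10 genes nearest to the member mean and the 2 nearest to each member; other genes, and the col list, were chosen after their values were seen. Plots used matplotlib 3.10.9 (Python 3.11.15). Nothing in the labels says that replicates came from separate cultures, so p-values measure the spread between samples. Alternatives were repeated quantile normalization, median centring, scaling to neuronal genes, a prior variance trend, array weights, a filter at the median level, the replicate number as a block, single arrays left out, averaged probe sets and a pseudocount of 16.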

Additional observations from a re-analysis of the deposited data

How the results depend on the processing

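The changes of the 5 genes stayed above 0 under all alternatives except scaling to the 13 pan-neuronal genes, which turned dpy-3 to -0.25 and dpy-9 to -0.0398 and brought the median of the 5 to 0.0012. The count of furrow collagens called higher was 1 in the main setting, 2 with median centring, array weights, dim probe sets left out or averaged probe sets, 0 with a second quantile normalization, the neuronal scaling, a trend in the prior variance or the replicate block, and 0 to 1 with single arrays left out. None was called lower in any of these. The causes were not tested. With single arrays left out, the median of the 5 genes ranged from 0.46 to 0.73. Over all probe sets, 580 were called lower and 867 higher; the counts were 276 to 628 and 336 to 1049 with single arrays left out, 19451 and 237 with the neuronal scaling, and 1367 were called higher with array weights. Same-numbered arrays of the genotypes did not deviate together (r = -0.19, -0.14 and -0.10 for replicates 1, 2 and 3, each below the other pairings). Deviations were taken from the mean of the 3 arrays of a genotype, so a lower value for 1 pairing raises others. Whether the numbers pair the samples therefore cannot be settled from these values. With the replicate block 461 were called lower and 604 higher. No detection calls were used, and 3 arrays per group limit what can be called.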
